A study of Mus musculus with 10 samples.

Results

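The IL-6 family of cytokines and the gp130 signalling pathway were followed in inflamed mouse colon by 10 genes: the ligand genes Il6, Il11, Osm and Lif, the receptor genes Il6ra, Il6st, Osmr and Il11ra1, the transcription factor gene Stat3 and its feedback inhibitor Socs3. They were matched by gene symbol, and 9 of the 10 had a probe set among the 19505 genes of the array. Il11ra1 had no probe set with that name and is not analysed here. The samples were complete colon tissue of wildtype C57BL/6 mice. All were given 3% dextran sulfate sodium (DSS), which injures the colonic epithelium, in the drinking water and an anti-PD1 antibody intraperitoneally. Every sample had both treatments, so their parts in the colitis cannot be told apart here. In 5 samples (ECP arrays) the mice had also received donor cells treated by extracorporeal photopheresis (ECP), a procedure that sensitises white blood cells with a psoralen drug and then irradiates them with UVA. The other 5 samples (control arrays) came from mice given DSS and the antibody alone. No sample without DSS, none without the antibody and none with untreated donor cells was analysed here. Values are log2 intensities after RMA, differences are ECP minus control on that scale, and errors are SD over 5 arrays unless stated.

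Nearly all cytokines of this family signal through the shared chain gp130, which Il6st encodes; IL-31 uses its own receptor chain with OSMR instead. IL-6 and IL-11 first bind their own alpha receptors, oncostatin M (Osm) pairs gp130 with OSMR, and leukaemia inhibitory factor (Lif) pairs it with LIFR. Janus kinases on these chains phosphorylate STAT3, which moves to the nucleus and induces, among other genes, Socs3, whose protein docks on gp130 and shuts the signal down. In the gut the pathway is known for acute phase responses, epithelial repair and the support of inflammatory T cells, and oncostatin M acts mainly on stromal cells.

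The labelled tissue was checked by the epithelial genes Epcam, at 12.15 to 12.32 over the 10 arrays, and Cdx2, a transcription factor gene of intestinal epithelium, at 10.58 to 11.08. Control replicates 1 and 4 stood apart from the other arrays by pancreatic acinar transcripts: the mean level of 13 measured acinar genes was 10.42 and 12.25 there, against 5.72 to 6.53 in the other controls and 5.56 to 5.75 in the ECP arrays. Control replicate 4 was also highest in B cell markers (7 measured genes, 8.66 against 6.18 to 6.39 in the other controls). It was highest as well in T cell markers (6 genes, 7.34 against 5.88 to 6.33) and in neutrophil markers (9 genes, 7.78 against 5.60 to 6.67). The part of these transcripts in the results was not tested beyond the values given without these arrays. In bulk tissue, fewer cells of a type and less RNA per cell cannot be told apart.

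None of the 9 measured genes could be called higher or lower in the ECP arrays. This does not show that they were unchanged, because the confidence intervals were wide. They ran from -0.31 to 1.07 for Il6 and from -0.88 to 0.13 for Socs3. In a limma fit over all genes 0 of 9 had an adjusted p under 0.05, against 0 of 19505 genes (0%), and 0 of 9 had an unadjusted p under 0.05, against 991 genes (5.08%). The values of the groups overlapped for each of the 9, and over all genes they did not overlap for 238 (1.22%). With shares this small, 0 of 9 does not set these genes apart from the rest. Adjusted p-values of the 9 lay between 0.998 and 1.00. Of the 4 ligand genes 3 were higher and 1 was lower in the ECP arrays, with a median difference of 0.15, which turned to -0.03 without control replicate 5 (2 higher, 2 lower). Of the 3 measured receptor genes 2 were higher and 1 was lower, with a median of 0.04, or -0.09 without control replicate 1 and -0.01 without ECP replicate 1. Stat3 and Socs3 had a median of -0.19, which was -0.31 without control replicate 5, -0.07 without control replicate 4 and -0.03 without control replicates 1 and 4. Over all genes the median difference was 0.01, with 53.3% of genes higher in the ECP arrays. The medians of the 3 roles were not tested against each other.

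**Figure D1:**
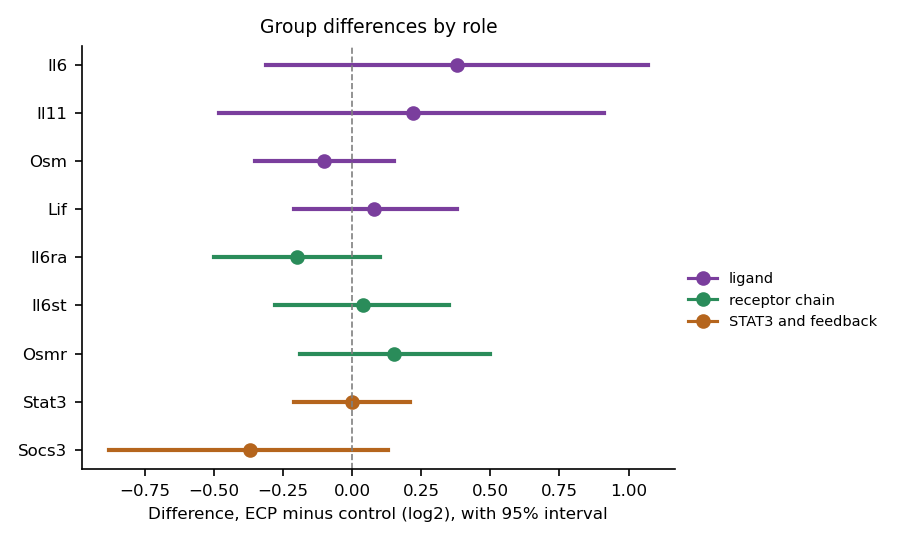
Difference between the ECP and control arrays (log2, 5 arrays a group) for the 9 measured genes, coloured by role, with the 95% interval of the limma fit as a line. Every interval includes 0, and the widest belong to Il6 (-0.31 to 1.07) and Il11 (-0.48 to 0.91).

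Il6 encodes the founding cytokine of the family, made by macrophages, fibroblasts and other cells under stimulation by interleukin-1 and TNF. It was at 5.73, 5.70, 5.38, 6.30 and 6.16 in ECP replicates 1 to 5 and at 5.14, 6.34, 5.22, 6.17 and 4.51 in control replicates 1 to 5. All 5 ECP arrays lay above the control median, but the highest single value was a control, and control replicate 5 was the lowest of all. The difference was 0.38 (SE 0.32, limma adjusted p = 0.998, 1.30-fold), with a 95% interval of -0.31 to 1.07. Leaving out control replicate 5 gave 0.14, and leaving out control replicate 2 gave 0.60.

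Il11 encodes a cytokine of stromal cells that acts on epithelium and fibroblasts. Its level was 6.35, 6.47, 5.73, 6.88 and 6.75 in ECP replicates 1 to 5 and 6.09, 6.76, 6.55, 6.67 and 5.00 in control replicates 1 to 5. Control replicate 5 was again lowest, and ECP replicate 3 lay below the other 4 controls while ECP replicate 4 was the highest of all. The difference of 0.22 (SE 0.32, adjusted p = 0.998) turned to -0.08 without control replicate 5.

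Osm encodes oncostatin M, a product of activated myeloid cells and T cells. Its values were 5.15, 4.90, 4.93, 5.02 and 5.09 in ECP replicates 1 to 5 and 5.09, 4.92, 5.13, 5.54 and 4.91 in control replicates 1 to 5. Control replicate 4 was the only array above 5.15. The difference was -0.10 (SE 0.11, adjusted p = 0.998), and it turned to 0.01 without control replicate 4 and to 0.04 without control replicates 1 and 4. Osm had the lowest mean level of the 9 genes over the 10 arrays (5.07) and did not pass a filter that leaves out the lowest 25% of genes (below 5.25), so its level is near the dim end of the array.

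Lif encodes leukaemia inhibitory factor, and in the RefSeq gene table for GRCm38.p6 it neighbours Osm on chromosome 11 with 0 protein-coding genes between them. It was at 7.27, 6.83, 6.93, 6.53 and 6.96 in ECP replicates 1 to 5 and at 7.01, 6.76, 6.66, 7.07 and 6.60 in control replicates 1 to 5. ECP replicates 1 and 4 held the highest and the lowest value of the 10 arrays. The difference was 0.08 (SE 0.14, adjusted p = 0.998), or -0.01 without ECP replicate 1. Lif was the 1 gene of the 9 whose SD was not larger in the controls (0.27 with ECP, 0.21 in the controls).

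The stretches before the starts of the ligand genes and of Socs3 are shown because they hold the letters of motifs bound by factors that act above and below gp130. TGANTCA is bound by AP-1, which interleukin-1 and TNF activate, and TTCNNNGAA is bound by STAT proteins; each reads the same on both strands, and the motifs do not overlap here. The RefSeq promoter table (GRCm38.p6, 250 bases before to 50 after each start) held 9 of the 10 genes, all but Osm. The AP-1 letters occurred before the starts of Il6, Il11 and Lif and just after that of Osmr, against 8.97% of all 27025 genes in the table. The STAT letters occurred in Socs3 and in none of the other 8 genes, against 9.55% of all genes. Below, the 250 bases before each start are written from 5′ to 3′ with the matching letters in capitals, AP-1 in the ligand genes and STAT in Socs3. A match is a description of the sequence and shows no binding.
Il6, chr5:30012864-30013113, plus strand: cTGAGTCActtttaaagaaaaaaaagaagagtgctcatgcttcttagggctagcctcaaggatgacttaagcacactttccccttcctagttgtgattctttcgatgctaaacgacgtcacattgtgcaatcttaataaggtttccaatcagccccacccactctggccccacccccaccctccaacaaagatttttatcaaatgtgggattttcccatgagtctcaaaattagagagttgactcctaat
Il11, chr7:4778142-4778391, minus strand: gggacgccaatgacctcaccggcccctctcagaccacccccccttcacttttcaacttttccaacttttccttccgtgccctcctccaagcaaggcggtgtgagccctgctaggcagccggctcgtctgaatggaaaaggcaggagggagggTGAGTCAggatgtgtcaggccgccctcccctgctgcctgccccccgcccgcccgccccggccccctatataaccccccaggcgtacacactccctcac
Lif, chr11:4257318-4257567, plus strand: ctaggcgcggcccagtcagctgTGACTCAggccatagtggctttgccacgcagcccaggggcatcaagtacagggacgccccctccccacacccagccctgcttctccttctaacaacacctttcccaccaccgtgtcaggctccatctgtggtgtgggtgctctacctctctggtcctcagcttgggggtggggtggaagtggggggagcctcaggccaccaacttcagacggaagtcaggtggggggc
Socs3, chr11:117969367-117969616, minus strand: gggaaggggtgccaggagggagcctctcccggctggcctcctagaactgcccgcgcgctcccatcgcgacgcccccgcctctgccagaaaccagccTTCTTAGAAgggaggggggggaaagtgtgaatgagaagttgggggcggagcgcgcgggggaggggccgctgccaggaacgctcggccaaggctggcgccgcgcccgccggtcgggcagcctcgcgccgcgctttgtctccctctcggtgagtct

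Il6ra encodes the alpha receptor that gives a cell its response to IL-6. It was at 7.39 in ECP replicate 1 and at 6.94, 6.92, 6.92 and 6.94 in ECP replicates 2 to 5, against 6.89, 7.16, 7.48, 7.54 and 7.05 in control replicates 1 to 5. The 4 lower ECP arrays lay within 0.02 of each other and below 4 of the 5 controls, while ECP replicate 1 lay among the high controls. The difference was -0.20 (SE 0.14, adjusted p = 0.998), with a 95% interval of -0.50 to 0.10. It stayed negative when any 1 array was left out, from -0.29 without ECP replicate 1 to -0.12 without control replicate 4.

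Il6st, the gene of gp130, was at 10.23, 9.92, 10.04, 10.13 and 9.93 in ECP replicates 1 to 5 and at 9.49, 10.12, 10.11, 10.42 and 9.92 in control replicates 1 to 5. The controls held both the highest and the lowest value. The difference was 0.04 (SE 0.14, adjusted p = 1.00), with a 95% interval of -0.28 to 0.35, and it turned to -0.09 without control replicate 1 and to -0.01 without ECP replicate 1.

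Osmr encodes the receptor chain that pairs with gp130 for oncostatin M. Its values were 8.45, 8.23, 8.14, 8.24 and 8.11 in ECP replicates 1 to 5 and 7.65, 8.38, 8.07, 8.55 and 7.76 in control replicates 1 to 5. All 5 ECP arrays lay above the control median and inside the range of the controls. The difference was 0.15 (SE 0.16, adjusted p = 0.998), and without control replicate 1 it was 0.04.

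Stat3 showed the smallest difference of the 9 genes. It was at 10.30, 10.18, 10.18, 10.13 and 10.01 in ECP replicates 1 to 5 and at 10.08, 10.38, 9.97, 10.36 and 10.01 in control replicates 1 to 5, with a mean of 10.16 in each group. The difference was 0.00 (SE 0.10, adjusted p = 1.00), with a 95% interval of -0.21 to 0.21, and its sign changed between arrays left out (-0.05 without control replicate 3, 0.06 without control replicate 2). These are transcript levels, and phosphorylation of STAT3 was not measured.

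Socs3, the feedback inhibitor and a direct target of STAT3, had the most negative difference of the 9. It was at 8.06, 7.94, 7.74, 7.87 and 7.55 in ECP replicates 1 to 5 and at 8.30, 8.41, 8.07, 8.91 and 7.32 in control replicates 1 to 5. Control replicates 1 to 4 each lay above all 5 ECP arrays, the closest pair being 8.07 and 8.06, and control replicate 5 lay below all of them. The difference was -0.37 (SE 0.23, adjusted p = 0.998, 0.773-fold), with a 95% interval of -0.88 to 0.13. Without control replicate 5 it was -0.59 (limma adjusted p = 0.494), without control replicate 4 it was -0.19, and without control replicates 1 and 4, the arrays with pancreatic transcripts, it was -0.10. The size of the difference therefore rested on which controls were included.

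**Figure D2:**
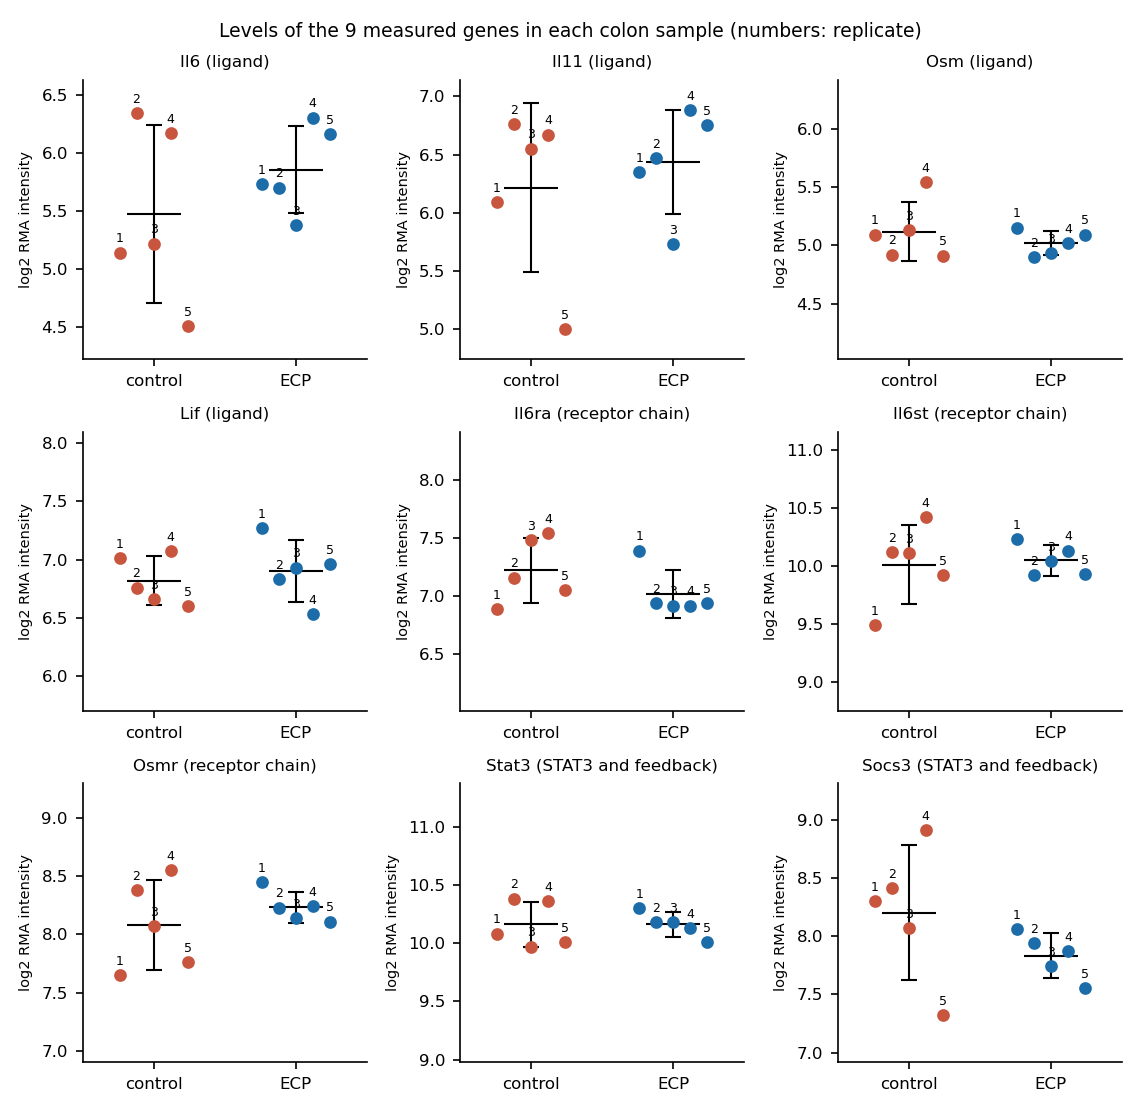
Level (log2 RMA intensity, each axis spanning the same 2.4 units) of each measured gene in the 5 control and 5 ECP arrays, with the replicate number beside each point and the group mean ± SD as bars. Control replicate 5 is lowest in Il6 (4.51), Il11 (5.00) and Socs3 (7.32), and control replicate 4 is highest in Osm, Il6ra, Il6st, Osmr and Socs3.

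The controls were the more variable group for most of these genes. The SD was larger in the controls for 8 of 9 genes, as it was for 65.8% of all genes, and more than 2 times larger for 5 of 9 (Il6, Osm, Il6st, Osmr and Socs3), as for 22.0% of all genes. The SD of Socs3 was 0.58 in the controls and 0.19 with ECP, Osmr 0.39 and 0.13, and Il6 0.76 and 0.37. Control replicate 4 was the highest of the 10 arrays for 5 of the 9 genes and control replicate 5 among the lowest 2 for 7 of the 9. The difference in spread was not tested.

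Across the 10 arrays, Il6 varied with Il11, and Il6st with Osmr. Of 36 pairs of genes these 2 passed the threshold. For Il6 and Il11 Pearson's r was 0.88 (permutation p = 0.000850, adjusted p = 0.0153) and Spearman's rho was 0.87 (permutation p = 0.00193, adjusted p = 0.0347). Dropping the 2 arrays with the most extreme Il6 gave 0.74, and without control replicate 5, the lowest array for both genes, it was 0.76 and no longer passed (permutation, adjusted p = 0.145). For Il6st and Osmr r was 0.88 (permutation p = 0.000290, adjusted p = 0.0104) and rho was 0.88 (permutation p = 0.00148, adjusted p = 0.0347). Dropping the 2 arrays with the most extreme Il6st gave an r of 0.69, and leaving out control replicate 1 gave 0.79 (permutation, adjusted p = 0.0571). With the group means removed r was 0.88 and 0.89. Neither pair passed in the 8 arrays left without control replicates 1 and 4, where r was 0.88 for Il6 with Il11 (permutation, adjusted p = 0.154) and 0.69 for Il6st with Osmr (adjusted p = 0.304).

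**Figure D3:**
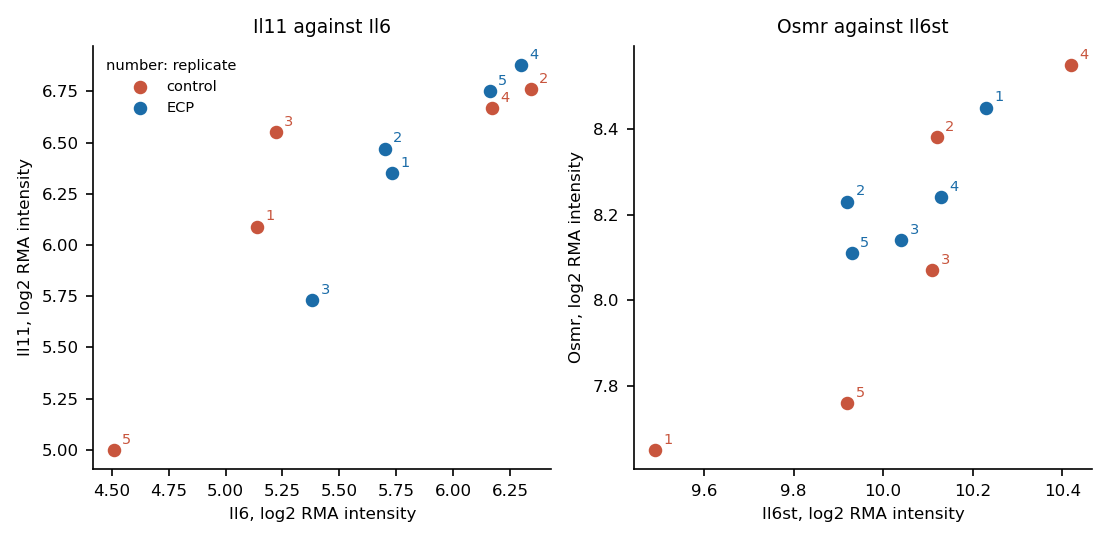
Il11 against Il6 (left) and Osmr against Il6st (right), both axes in log2 RMA intensity, 1 point an array with its replicate number. The points run from low to high in both panels (Pearson's r 0.88 in each) with ECP and control arrays mixed, control replicate 5 at the low end on the left and control replicate 1 on the right.

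The other pairs did not pass on the values as deposited. Il6 and Socs3 had an r of 0.45 (permutation p = 0.195, adjusted p = 0.350), with rho 0.35 (permutation p = 0.330, adjusted p = 0.540). Dropping the 2 arrays with the most extreme Il6 gave an r of 0.00, and leaving out control replicate 5 gave 0.13. Without control replicates 1 and 4 it was 0.55. With the group means removed the r of Il6 and Socs3 was 0.70 and did not pass. Stat3 and Socs3 had an r of 0.68 (permutation p = 0.0290, adjusted p = 0.149) and a rho of 0.54 (permutation p = 0.115, adjusted p = 0.344), and dropping the 2 arrays with the most extreme Stat3 gave 0.32. Neighbouring Osm and Lif had an r of 0.49 (permutation p = 0.154, adjusted p = 0.308), a rho of 0.60 (permutation p = 0.0731, adjusted p = 0.344), and an r of 0.48 with the 2 arrays most extreme in Osm dropped. With the group means removed, 3 further pairs passed: Il6ra with Il6st (r = 0.82, permutation, adjusted p = 0.0230), Osmr with Stat3 (r = 0.80, adjusted p = 0.0382) and Stat3 with Socs3 (r = 0.75, adjusted p = 0.0382). These p-values come from permuting all arrays without regard to group and tend to be too small.

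Il6st and Osmr varied with stromal and myeloid markers. Of 90 relations between a gene and the mean level of a marker list, 11 passed the threshold on r and 4 of these also on rho. Il6st followed the endothelial list (8 genes, r = 0.96, permutation adjusted p = 0.00585; rho = 0.89, adjusted p = 0.0236), the fibroblast list (9 genes, r = 0.91, adjusted p = 0.00585; rho = 0.93, adjusted p = 0.0166) and the monocyte and macrophage list (11 genes, r = 0.88, adjusted p = 0.00846; rho = 0.89, adjusted p = 0.0236). The raw permutation p-values of these were 0.000120, 0.000130 and 0.000470 for r, and 0.00105, 0.000370 and 0.00104 for rho. Osmr followed the monocyte and macrophage list most closely (r = 0.93, permutation p = 0.000350, adjusted p = 0.00787; rho = 0.94, permutation p = 0.000230, adjusted p = 0.0166). With the 2 arrays most extreme in the gene dropped, r was 0.78, 0.76 and 0.79 for Il6st and 0.91 for Osmr. Osmr also followed the fibroblast list (r = 0.90, permutation p = 0.000330, adjusted p = 0.00787) and the endothelial list (r = 0.86, permutation p = 0.000810, adjusted p = 0.0121), each with a rho of 0.82 (permutation, adjusted p = 0.0868) and an r of 0.65 and 0.72 with those arrays dropped. Il6ra passed with the colon epithelial list (r = -0.74, permutation p = 0.00439, adjusted p = 0.0395; rho = -0.60, adjusted p = 0.281), and r was -0.72 with the 2 arrays most extreme in Il6ra dropped. With the group means removed it passed instead with the monocyte and macrophage (r = 0.88, permutation, adjusted p = 0.0152), endothelial (r = 0.83, adjusted p = 0.0154) and fibroblast lists (r = 0.80, adjusted p = 0.0340). Here too the p-values of that setting tend to be too small.

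Those marker lists did not separate the groups. The fibroblast list lay at 8.96 to 9.26 in the ECP arrays and at 8.63 to 9.36 in the controls, the endothelial list at 7.27 to 7.56 and 6.86 to 7.71, and the monocyte and macrophage list at 7.83 to 8.59 and 7.49 to 8.55. Their members were higher in the ECP arrays for 8 of 9, 6 of 8 and 7 of 11 genes, with medians of 0.09, 0.06 and 0.09, and without control replicate 1 for 3 of 9, 3 of 8 and 4 of 11, with medians of -0.02, -0.05 and -0.05. Of these lists 0 genes had a limma adjusted p under 0.05. At an unadjusted p under 0.05 (limma), 1 of 9 fibroblast genes was lower and 1 of 8 endothelial genes higher, against 5.08% of all genes. Some other lists lay to one side with all arrays in, with 0 genes called. All 8 smooth muscle genes (median 0.29) and all 8 adipocyte genes (0.32) were higher with ECP. All 7 B cell genes (-0.43) and all 13 acinar genes (-2.27) were lower. Of the acinar genes 6 had an unadjusted p under 0.05 (limma), as had 1 smooth muscle gene, 1 adipocyte gene and 0 B cell genes. Without control replicate 4 the B cell list turned to 6 higher and 1 lower (median 0.08). Without control replicates 1 and 4 the acinar median was -0.26 (2 higher, 11 lower) and the smooth muscle median 0.03 (5 higher, 3 lower), while the adipocyte genes were still all higher (0.34). Their part in the differences of the pathway genes was not tested.

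Osm and Socs3 gave relations of another kind. Osm had an r of 0.89 with the neutrophil list (permutation p = 0.00277, adjusted p = 0.0298), where rho was 0.65 (permutation p = 0.0491, adjusted p = 0.232) and dropping the 2 arrays with the most extreme Osm gave 0.62. Its r was 0.91 with the B cell list (permutation p = 0.00298, adjusted p = 0.0298; rho = 0.54, adjusted p = 0.290) and -0.91 with the colon epithelial list (permutation p = 0.00495, adjusted p = 0.0405; rho = -0.73, adjusted p = 0.143). Dropping the 2 arrays with the most extreme Osm gave 0.61 and -0.55. Without control replicate 4 the r with neutrophil, B cell and epithelial lists was 0.61, 0.58 and -0.60, so that they rested on that array. Socs3 was lower where the epithelial list was higher (r = -0.84, permutation p = 0.00159, adjusted p = 0.0204; rho = -0.81, permutation p = 0.00772, adjusted p = 0.0868; r = -0.51 with the 2 arrays most extreme in Socs3 dropped). With the group means removed its r was -0.83 and did not pass, while the relations of Osm did. With each array centred on its median, the relations of Osm, Socs3 and Il6ra did not pass. The epithelial list spanned a narrow range, 11.88 to 11.97 in the ECP arrays and 11.71 to 12.00 in the controls. Of the 11 relations 1 remained past the threshold without control replicate 4, that of Osmr with the monocyte and macrophage list (r = 0.91, permutation, adjusted p = 0.0423), and none without control replicates 1 and 4.

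**Figure D4:**
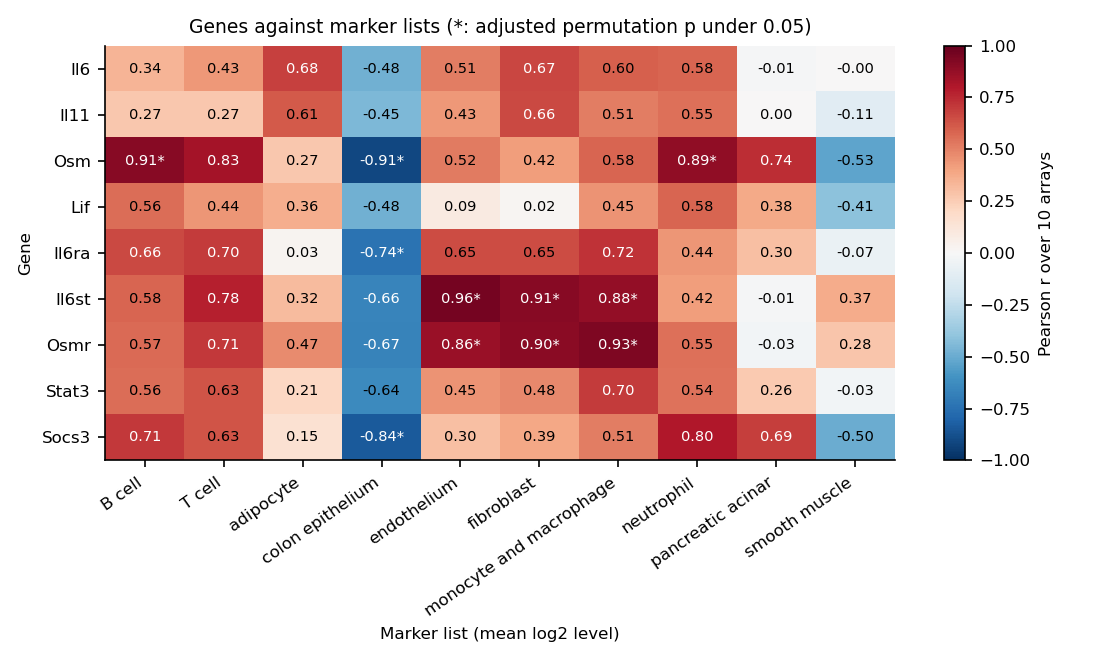
Pearson's r over the 10 arrays between each measured gene (rows) and the mean log2 level of each marker list (columns), with an asterisk where the permutation p adjusted over 90 relations was under 0.05. Il6st and Osmr are highest with endothelium, fibroblasts, monocytes and macrophages (0.86 to 0.96), and Il6 and Il11 have no relation past the threshold.

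The genes whose levels ran most like each ligand, Stat3 and Socs3 over the 10 arrays are given as a description, with no test. For Il6 they were Gzmb, a cytotoxic granule protease (r = 0.946), Mmp3, the matrix protease stromelysin (0.931), Acp2 (0.926), Il1b, the gene of interleukin-1 beta (0.911), and Ehd3 (0.892). Il11 ran closest to 1110038F14Rik (0.890), Vwc2l (0.880), Nox4, an oxidase gene of fibroblasts (0.878), Smoc1 (0.877) and Il1b (0.873), so that Il1b stood among the closest 5 for both ligands. Without control replicate 5 the r with Il1b was 0.850 for Il6 and 0.623 for Il11. In the same setting the r of Il11 was 0.671 with 1110038F14Rik, 0.701 with Vwc2l, 0.615 with Nox4 and 0.870 with Smoc1.

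Socs3 ran closest to Gpr182, an endothelial receptor gene (r = 0.985, and 0.969 without control replicates 1 and 4), followed by Zfp263 (0.919), Cebpd, a transcription factor gene that STAT3 induces (0.913), Itih4, an acute phase gene (0.913), and Sult6b2 (0.899). Without control replicates 1 and 4, r was 0.824 for Zfp263, 0.926 for Cebpd, 0.815 for Itih4 and 0.768 for Sult6b2. Stat3 ran with the interferon-induced genes Bst2 (0.954) and Cxcl10 (0.952), and then with Bysl (0.937), Nudt5 (0.925) and Eprs (0.925). For Lif the genes were Psme2, a proteasome activator gene induced by interferon (0.929), Fgd3 (0.920), Slfn10-ps (0.910), Med30 (0.907) and Arpc4 (0.904). For Osm, 59 genes had an r above 0.9, led by Ddit4 (0.972), Arhgap45 (0.968), Eif2s3y (0.963), Ccr6 (0.956) and Vtn (0.955); without control replicates 1 and 4 these were 0.792 to 0.901.

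Genes that STAT3 is known to induce within hours were higher as often as lower. With ECP, 8 of 16 such genes were higher and 8 lower, 0 passed the threshold, 0 had an unadjusted p under 0.05 (limma), and the median difference was -0.01. Without control replicates 1 and 4 these were 12 higher and 4 lower (median 0.07), and without ECP replicate 1 they were 5 higher and 11 lower (-0.04). The 3 with the smallest p were all lower. Cebpd was at 9.81, 9.57, 9.40, 9.69 and 9.52 in ECP replicates 1 to 5 and at 10.01, 10.42, 9.96, 10.30 and 9.23 in control replicates 1 to 5. As for Socs3, control replicates 1 to 4 lay above every ECP array and control replicate 5 below every one. The difference was -0.39 (SE 0.19, adjusted p = 0.996), or -0.58 without control replicate 5 (limma adjusted p = 0.269). Bcl3, a regulator of NF-kB, differed by -0.30 (SE 0.17, adjusted p = 0.998) and the transcriptional repressor gene Bcl6 by -0.27 (SE 0.12, adjusted p = 0.985). In the RefSeq promoters, 3 of the 12 genes of this list in the table held the STAT letters (Bcl6, Icam1 and Zfp36), against 9.55% of all genes there.

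Of 7 measured survival and growth genes linked to STAT3, 3 were higher and 4 lower, with a median of -0.02, and without control replicate 5 they were 1 higher and 6 lower (-0.05). At an unadjusted p under 0.05 (limma) 1 was higher (Vegfa) and 1 lower (Birc5), against 5.08% of all genes, and 0 passed the threshold. Birc5 encodes survivin, a protein of dividing cells as well as an inhibitor of apoptosis. It was at 8.42 to 8.53 in the ECP arrays and 8.68 to 9.08 in the controls. The groups did not overlap for Birc5, 1 of the 7 genes of this list, and over all genes for 1.22%. The difference of Birc5 was -0.35 (SE 0.08, limma adjusted p = 0.256). Vegfa, the gene of the vascular growth factor, differed by 0.20 (SE 0.07, adjusted p = 0.862) and Mcl1, which guards against apoptosis, by -0.08 (SE 0.08, adjusted p = 0.998).

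Acute phase and repair genes that gp130 signals induce were higher in the ECP arrays for 12 of 16, with a median of 0.10 (2 of the 16, S100a8 and S100a9, are also neutrophil markers), and 0 had an unadjusted p under 0.05 or passed the threshold (limma). Without control replicate 5 the list turned, with 7 higher and 9 lower and a median of -0.11, and without control replicate 4 it had 15 higher and 1 lower and a median of 0.39. The antimicrobial lectin gene Reg3g differed by 0.60 (SE 0.28, adjusted p = 0.989), or 0.33 without control replicate 3, its relative Reg3b by 0.35 (SE 0.17, adjusted p = 0.996), or 0.19 without control replicate 3, and the serum amyloid gene Saa1 by 0.15 (SE 0.09, adjusted p = 0.998).

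Upstream, 6 of 6 measured genes of signals that raise Il6 and its relatives were higher in the ECP arrays, with a median of 0.56. Of these, 1 (Ptgs2) had an unadjusted p under 0.05 (limma), against 5.08% of all genes, and 0 passed the threshold. Without control replicate 5 they were 5 of 6, with a median of 0.29 and Tgfb1, the gene of transforming growth factor beta, at -0.08 in place of 0.02. Ptgs2, the gene of the inducible prostaglandin synthase, was at 8.44, 8.64, 8.41, 9.51 and 9.08 in ECP replicates 1 to 5 and at 7.73, 8.12, 8.07, 8.85 and 7.55 in control replicates 1 to 5. All ECP arrays lay above 4 of the 5 controls, and control replicate 4 lay among the ECP values. The difference was 0.75 (SE 0.26, adjusted p = 0.807). Il1a, the gene of interleukin-1 alpha, differed by 0.83 (SE 0.39, adjusted p = 0.988), or 0.56 without control replicate 5, and Il17a by 0.19 (SE 0.09, adjusted p = 0.996). Il1b differed by 0.62 (0.23 without control replicate 5) and Tnf, the gene of tumour necrosis factor, by 0.50 (0.31 without control replicate 3).

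The other parts of the pathway showed small differences. Of 6 further ligand genes 3 were higher and 3 lower (median 0.00), with Il31 at 0.13 (SE 0.07), Ebi3, a subunit of IL-27, at -0.15 (SE 0.22), and Clcf1 at -0.10 (SE 0.18). Ebi3 turned to 0.07 and Clcf1 to 0.02 without control replicate 4, and Clcf1 to 0.03 without ECP replicate 3. All 4 further receptor genes were lower (median -0.12): Il27ra by -0.32 (SE 0.32), Il31ra by -0.12 (SE 0.09), Cntfr by -0.09 (SE 0.07) and Lifr, the partner of gp130 for Lif, by -0.11. Without control replicate 4, Il27ra turned to 0.02 and Lifr to 0.12, so that 2 were higher and 2 lower (median -0.03). Of 4 genes for receptor shedding, which releases soluble IL-6 receptor, Rhbdf2, a partner of the protease ADAM17, differed by -0.19 (SE 0.07, adjusted p = 0.862), Rhbdf1 by 0.10 (SE 0.08) and Adam17 itself by -0.07 (SE 0.09).

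Of 10 kinase, adaptor and phosphatase genes 4 were higher and 6 lower, all within -0.14 and 0.09 (7 higher and 3 lower without control replicate 4), and the smallest p belonged to Ptpn11 (0.09, SE 0.08), Ptpn2 (0.07, SE 0.07) and Tyk2 (-0.04, SE 0.06). Of 12 other STAT and feedback genes 6 were higher and 6 lower, with Socs7 at -0.23 (SE 0.08, adjusted p = 0.862), Stat5b at -0.10 (SE 0.08) and Cish, a feedback gene of STAT5, at 0.08 (SE 0.09). No gene of these lists had a limma adjusted p under 0.05. Adjusted p-values of those named without one were 0.998 to 0.999. At an unadjusted p under 0.05 (limma) there were 1 of 4 shedding genes (Rhbdf2) and 1 of 12 STAT or feedback genes (Socs7), both lower. Over all genes the share was 5.08%, and so few genes do not set these lists apart.

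**Figure D5:**
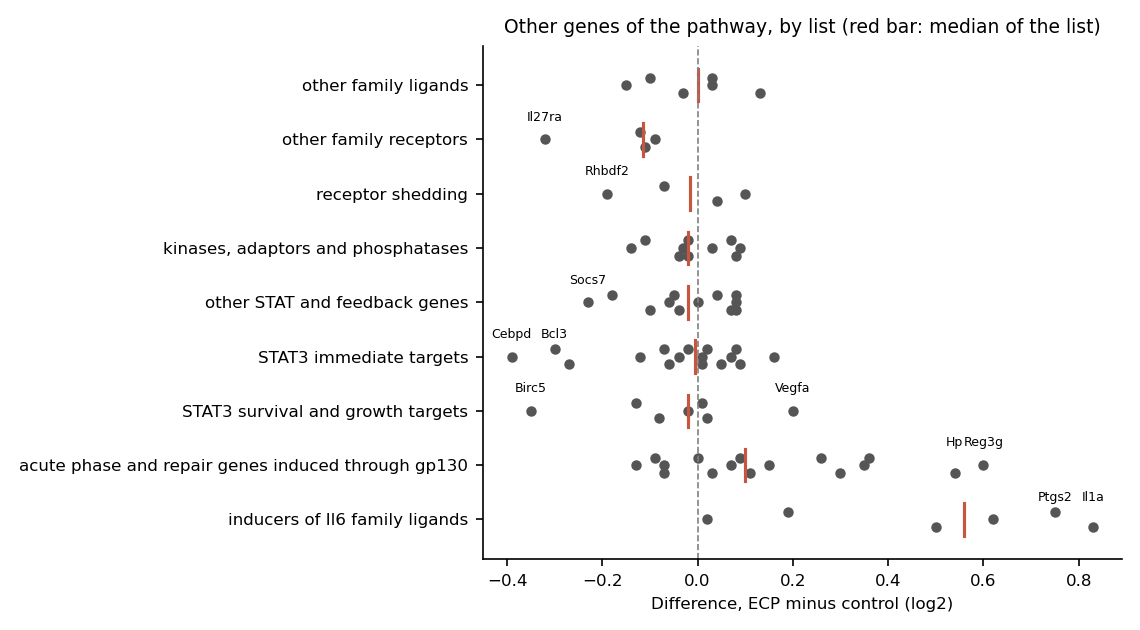
Difference between the ECP and control arrays (log2) for each measured gene of 9 further lists of the pathway, 1 point a gene, with the median of each list as a red bar. Points of most lists lie on both sides of 0, those of the inducers of the ligands lie at or above 0.02 with a median of 0.56, and those of the further receptors lie below 0, with all arrays in.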

How the data were processed

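Total RNA of 10 colon samples was hybridised to single-colour arrays with biotin label, per the labels. The authors deposited log2 intensities; the submitters' processing notes name oligo and RMA, and their versions, their options and the build were not given in the sources used here. Because RMA equalises the distributions of arrays, a shift common to most genes is hidden, and the number of arrays limits the precision. The table held 22203 probe sets, array medians lay between 6.94 and 6.98, and correlations between arrays were 0.977 to 0.996. Probe sets were named through the platform annotation. All 19572 named probe sets had 1 symbol, which matched RefSeq, and 2631 were unnamed here. The probe set with the highest mean represented a gene (19505 genes, 55 with several, none of them one of the 9 genes described).

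Groups and replicate numbers came from the titles. The labels do not state whether arrays are separate mice, and p-values then reflect only the spread among these samples, which may be technical. Genes were compared with limma 3.58.1 in R 4.3.3 (two-sided moderated test from lmFit and eBayes, groups alone in the model, every named gene kept, Benjamini-Hochberg adjustment over all genes, threshold 0.05). Pearson and Spearman correlations over the 10 arrays had two-sided permutation p-values from 100000 resamples, adjusted over 36 pairs of genes or 90 gene and marker list relations. Permutations ignored the groups also where group means had been removed, so p-values in that setting tend to be too small. The scripts were tested on simulated data. Genes named are the 10 listed genes, the 3 with the smallest p in each of 9 further lists, the 5 most like each ligand, Stat3 and Socs3, and, chosen after their values were seen, Lifr, Il1b, Tnf, Tgfb1, S100a8, S100a9 and the tissue markers Epcam and Cdx2. The 10 genes and all lists were chosen with earlier results of these data known. Alternatives were median centring, renewed quantile normalisation, filters on low values, the mean of probe sets, trend and robust options, array weights, a replicate block, arrays left out and the acinar level as a covariate; lists were recounted with arrays left out, a choice made after seeing the data.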

Additional observations from a re-analysis of the deposited data

Results flagged for a closer look

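A single array was distant from its group in 9 of the 92 sets of 5 values examined, meaning that the step to the next value took more than 0.71 of the range; about 1 in 20 sets (5) would do so by chance. ECP replicate 1 was high in Il6ra (7.39, next 6.94) and in monocyte and macrophage markers (8.59, next 8.05). Control replicate 4 was high in Ebi3 (5.89, next 4.89), Il27ra (7.13, next 5.71) and B cell markers (8.66, next 6.39). Control replicate 1 was low in Mcl1 (10.97, next 11.31), and ECP replicate 5 was high in Reg3g (12.56, next 12.00). Adipocyte markers were low in ECP replicate 2 (6.72, next 7.51) and in control replicate 5 (6.33, next 7.04). Among the 9 measured genes of the pathway's core, Il6ra in ECP replicate 1 was the only value set apart in this way.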

How the results depend on the processing

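Of 175 differences of the 9 genes under the alternatives, 160 kept their direction, 15 turned, and 0 passed the threshold (smallest limma adjusted p = 0.494). Stat3 turned to -0.01 with median centring and with renewed quantile normalisation, and Osm to 0.07 with acinar level as covariate and to 0.04 without control replicates 1 and 4. Leaving out 1 array gave ranges of -0.08 to 0.39 for Il11, -0.15 to 0.01 for Osm, -0.01 to 0.18 for Lif, -0.09 to 0.14 for Il6st and -0.05 to 0.06 for Stat3. Genes called over the array rose from 0 to 1 without the lowest 25% of genes (Ccna2) or with trend and robust options (Ccna2), to 7 without genes below the median level, and to between 0 and 1 with 1 array left out (Cenpf without control replicate 3); none was a gene described here. The first filter keeps 8 of the 9 genes, all but Osm, and the second 5, which leaves no ligand. The median of a role was computed only with all its measured genes in, so neither filter has a ligand median. Over the other alternatives the ligand median lay between -0.03 and 0.28, that of the receptors between -0.09 and 0.14, and that of Stat3 and Socs3 between -0.31 and -0.01. Pairs of genes past the threshold numbered 5 with group means removed, 0 without control replicates 1 and 4, and 1 to 4 with 1 array left out. Marker relations numbered 0 without control replicates 1 and 4, 6 with median centring, and 1 to 13 with 1 array left out, the lowest without control replicate 4. The cause of these shifts was not tested. With the replicate number as a block, 0 genes were called and Socs3 stayed at -0.37; same-numbered arrays share only a number (correlation of their deviations -0.24 to 0.08).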

Other observations

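Differences between 2 genes within an array, chosen after their values were seen and given without a test, set the ligand beside the feedback gene. Socs3 minus Il6 was 2.32, 2.24, 2.36, 1.57 and 1.39 in ECP replicates 1 to 5 and 3.16, 2.07, 2.85, 2.74 and 2.82 in control replicates 1 to 5, with means of 1.98 ± 0.46 and 2.73 ± 0.40 (SD, n = 5). Control replicate 5, the array lowest in Il6 and in Socs3, lay among the other controls on this measure, and control replicate 2 lay among the ECP arrays. Cebpd minus Il6 was 3.36 to 4.08 with ECP and 4.08 to 4.87 in the controls, with means of 3.74 and 4.51. Il6ra minus Il6st averaged -3.03 ± 0.14 with ECP and -2.79 ± 0.16 in the controls. The groups overlapped for Socs3 minus Il6 and for Il6ra minus Il6st. They also overlapped for the other measures computed: Socs3 minus Il11, Socs3 minus Stat3, Il6 minus Il6st, Osmr minus Il6st and Bcl3 minus Il6. Only for Cebpd minus Il6 did they not overlap, and there the closest ECP and control values were both 4.08 after rounding. How often other pairs of genes on the array do not overlap was not computed. No difference between the groups is claimed for these measures.

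Of the further lists, the STAT letters TTCNNNGAA were found in the promoters of Il31ra, Gab1, Cish, Reg3b and Steap4 beside the genes given above, and the AP-1 letters TGANTCA in Cntf, Il1rn, Il1a and Il17a. Counted over the genes of each list in the promoter table, the STAT letters were in 1 of 4 receptor, 1 of 9 kinase, adaptor and phosphatase, 1 of 8 other STAT and feedback, and 2 of 13 acute phase genes. The AP-1 letters were in 1 of 5 ligand genes, 1 of 13 acute phase genes and 2 of 7 inducers. Of all genes in that table, 9.55% held the STAT letters and 8.97% the AP-1 letters. Over all promoters of this length the shares were 8.30% and 7.81%.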
